A study of Mus musculus with 6 samples.

Results

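The T cell receptor complex and its first signalling steps were described through 9 genes, Cd3d, Cd3e, Cd3g, Cd247, Lck, Zap70, Lat, Lcp2 and Cd2, which were chosen by symbol and were all found among the 48440 genes of the count table. The study describes the RNA as that of murine tissue around BMSCs-engineered cartilage (BEC), and its samples were taken with this tissue entangled. The BEC was made from rabbit cells on a PLGA scaffold and wrapped in an electrospun membrane of PCL and collagen. It was kept for 12 weeks under the skin of male BALB/c nude mice that were 6 to 8 weeks old at purchase. In the 3%-Axitinib group (3 samples), the membrane held 3% of axitinib, an inhibitor of the receptors for vascular endothelial growth factor, by weight of polymer. In the 0%-Axitinib group (3 samples), it held no drug. Samples of these groups are also called treated and untreated below. The labels call the samples without drug untreated, and they were read as the 0%-Axitinib group because the deposited protocol describes membranes with 0% or 3% of the drug and no other arm. Samples may share a mouse, since an animal carried more than 1 construct, and which mouse each came from is not given in the sources used here, so p-values measure the spread between these samples only.

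An antigen receptor on a T cell is made of variable alpha and beta (or gamma and delta) chains, which bind antigen but carry almost no signalling tail, and of the CD3 delta, epsilon, gamma and zeta chains, which do. When the receptor is bound, the kinase Lck phosphorylates the CD3 and zeta tails, Zap70 docks there and phosphorylates the adaptor Lat, and the adaptor encoded by Lcp2 joins Lat to build the complex that starts calcium and Ras signalling. Nude mice carry a defect of Foxn1 that stops the thymus from forming, so they hold few mature T cells, while NK cells, B cells and myeloid cells develop.

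Reads on genes ranged from 9225518 to 18403795 in a sample. Levels are given as CPM, the reads of a gene per 1000000 reads on genes, with TMM scaling between libraries. A count of 3, taken as the limit of detection, corresponded to 0.157, 0.175 and 0.163 CPM in replicates 1, 2 and 3 of the 0%-Axitinib group and to 0.33, 0.273 and 0.174 CPM in those of the 3%-Axitinib group, which covers counting error only.

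Several libraries stood apart before any comparison. Replicate 3 of the 0%-Axitinib group had Spearman correlations of 0.891 and 0.893 with the other samples of its group, which correlated with each other at 0.978 across genes. Its neutrophil list, led by S100a9, summed to 19200 CPM, against 29.4 and 44.2 CPM in replicates 1 and 2 and 144, 99.8 and 41.3 CPM in the 3%-Axitinib samples. That library was also the highest of the 6 for 28.3% of all tested genes. Replicate 2 of the 0%-Axitinib group held 895 CPM of epidermal genes, led by Krt1, against at most 8.36 CPM in the other 5 samples. Replicates 1 and 3 of the 3%-Axitinib group held 12900 and 7110 CPM of skeletal muscle genes, led by Acta1, against 129 CPM or less elsewhere. Fibroblast genes were abundant in all 6 samples, with list sums of 27400, 13500 and 10800 CPM in the 0%-Axitinib group and 23900, 70900 and 26600 CPM in the 3%-Axitinib group. Unmapped reads made up 5.47%, 3.84% and 14.9% of the 0%-Axitinib libraries and 48.4%, 29.2% and 16.8% of the 3%-Axitinib libraries. Whether RNA of the rabbit cells was among the mapped or unmapped reads was not tested.

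The 9 genes together summed to 74.1, 104 and 379 CPM in replicates 1, 2 and 3 of the 0%-Axitinib group and to 45.4, 49.3 and 62.4 CPM in those of the 3%-Axitinib group. The sums did not overlap, and replicate 3 of the 0%-Axitinib group stood far above all others. In that library each of the 9 genes had its highest level of the 6 samples. In bulk tissue, fewer cells that carry these transcripts and less RNA per cell cannot be told apart.

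Cd3d, which encodes the delta chain of CD3, was read at 0.0522, 1.57 and 66.7 CPM in the 0%-Axitinib group (22.8 ± 38.0, SD, n = 3) and at 0.11, 0 and 0 CPM in the 3%-Axitinib group (0.0367 ± 0.0635, SD, n = 3). In counts this was 1, 27 and 1228 reads against 1, 0 and 0 reads, so replicate 1 without drug was as empty as the treated samples and the groups overlapped. Replicate 3 held 97.6% of the group's summed CPM. Pooled over samples, the ratio of 1256 to 1 reads corresponded to a level 857 times as high without drug (95% counting interval 154 to 33900). Without replicate 3 the pooled ratio of 28 to 1 reads was 28.8 (95% counting interval 4.76 to 1180). Both exact binomial intervals cover counting error only.

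Cd3g, the gamma chain, followed the same order with 0.157, 1.87 and 24.7 CPM in the 0%-Axitinib group (8.89 ± 13.7, SD, n = 3) and 0.11, 0.0911 and 0 CPM in the 3%-Axitinib group (0.067 ± 0.0588, SD, n = 3). The groups did not overlap, but replicate 1 without drug (3 reads) lay at the limit of detection beside treated samples with 1, 1 and 0 reads. The pooled ratio was 167 (489 against 2 reads, 95% counting interval 45.9 to 1380) with all samples and 18 (35 against 2 reads, 95% counting interval 4.62 to 154) without replicate 3 of the 0%-Axitinib group. Neither Cd3d nor Cd3g reached the minimum of 10 reads in enough samples, and both were left out by the filter on low counts.

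Cd3e, the epsilon chain shared by both kinds of CD3 heterodimer, was read at 0.261, 2.1 and 23.3 CPM in the 0%-Axitinib group (8.55 ± 12.8, SD, n = 3) and at 0.22, 1.18 and 0.116 CPM in the 3%-Axitinib group (0.507 ± 0.589, SD, n = 3). Treated replicate 2 lay above untreated replicate 1, and the groups overlapped. The fitted log2 fold change was -4.10 ± 1.65 (SE) with edgeR's quasi-likelihood test (adjusted p = 0.196), and without replicate 3 of the 0%-Axitinib group it was -1.25 ± 1.17 (SE). Without treated replicate 2 it was -5.67.

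Cd247 encodes the zeta chain, which NK cells also use beneath their Fc receptor and activating receptors. Its levels were 1.41, 1.69 and 7.28 CPM in the 0%-Axitinib group (3.46 ± 3.31, SD, n = 3) and 0.22, 0.0911 and 0.347 CPM in the 3%-Axitinib group (0.219 ± 0.128, SD, n = 3). Every treated sample lay below every sample without drug, and replicates 1 and 2 of the 0%-Axitinib group were close to each other. The log2 fold change was -3.87 ± 0.89 (SE; edgeR, adjusted p = 0.0973) with all samples and -2.70 ± 0.61 (SE; edgeR, adjusted p = 0.0503) without replicate 3 of the 0%-Axitinib group, and over all alternatives its adjusted p ran from 0.00174 to 0.281. Cd247 overlaps Pou2f1 on the opposite strand, and since the strand setting of the counting is not given, reads of the shared stretch may be missing or misplaced.

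Among the kinases, Lck was read at 2.71, 6.3 and 39.4 CPM in the 0%-Axitinib group (16.1 ± 20.2, SD, n = 3) and at 1.43, 0.82 and 1.22 CPM in the 3%-Axitinib group (1.16 ± 0.309, SD, n = 3). The groups did not overlap, with a narrow gap between 1.43 and 2.71 CPM. The log2 fold change was -3.80 ± 1.03 (SE; edgeR, adjusted p = 0.114) with all samples and -1.96 ± 0.51 (SE; edgeR, adjusted p = 0.0601) without replicate 3 of the 0%-Axitinib group, within a range of 0.000887 to 0.29 over the alternatives. Zap70, the kinase that docks on the phosphorylated tails and is likewise used by NK cells, was read at 0.731, 2.92 and 17.3 CPM without drug (6.97 ± 8.99, SD, n = 3) and at 1.43, 1.82 and 0.811 CPM with it (1.35 ± 0.51, SD, n = 3). All treated samples of Zap70 lay above untreated replicate 1 and below untreated replicate 2. Its log2 fold change was -2.37 ± 1.08 (SE; edgeR, adjusted p = 0.237), and -0.44 ± 0.70 (SE) without replicate 3 of the 0%-Axitinib group.

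Lat is a membrane adaptor of T cells that is also present in NK cells, mast cells and platelets. It was read at 16.9, 34.7 and 72.2 CPM in the 0%-Axitinib group (41.3 ± 28.3, SD, n = 3) and at 4.29, 4.65 and 15.6 CPM in the 3%-Axitinib group (8.19 ± 6.45, SD, n = 3). The groups did not overlap, although treated replicate 3 came within 1.3 CPM of untreated replicate 1. The log2 fold change was -2.32 ± 0.70 (SE; edgeR, adjusted p = 0.132) with all samples and -1.63 ± 0.63 (SE) without replicate 3 of the 0%-Axitinib group. Without treated replicate 3 it was -3.19.

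Lcp2 encodes an adaptor that works with Lat and is shared by T cells, NK cells, mast cells, macrophages and platelets. Levels of 43.1, 46.3 and 109 CPM without drug (66.2 ± 37.3, SD, n = 3) stood against 25.3, 35.5 and 30.9 CPM with it (30.6 ± 5.13, SD, n = 3). The groups did not overlap, and the log2 fold change was -1.11 ± 0.39 (SE; edgeR, adjusted p = 0.158), or -0.55 ± 0.18 (SE) without replicate 3 of the 0%-Axitinib group.

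Cd2, an adhesion and costimulatory receptor that mouse B cells and NK cells carry as well, did not share the pattern. It was read at 8.77, 6.71 and 19.2 CPM in the 0%-Axitinib group (11.5 ± 6.68, SD, n = 3) and at 12.3, 5.1 and 13.3 CPM in the 3%-Axitinib group (10.2 ± 4.48, SD, n = 3). The samples of both groups were interleaved. The log2 fold change of -0.17 ± 0.52 (SE; edgeR, adjusted p = 0.863) became 0.40 ± 0.44 (SE) without replicate 3 of the 0%-Axitinib group and 0.16 without treated replicate 2.

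**Figure D1:**
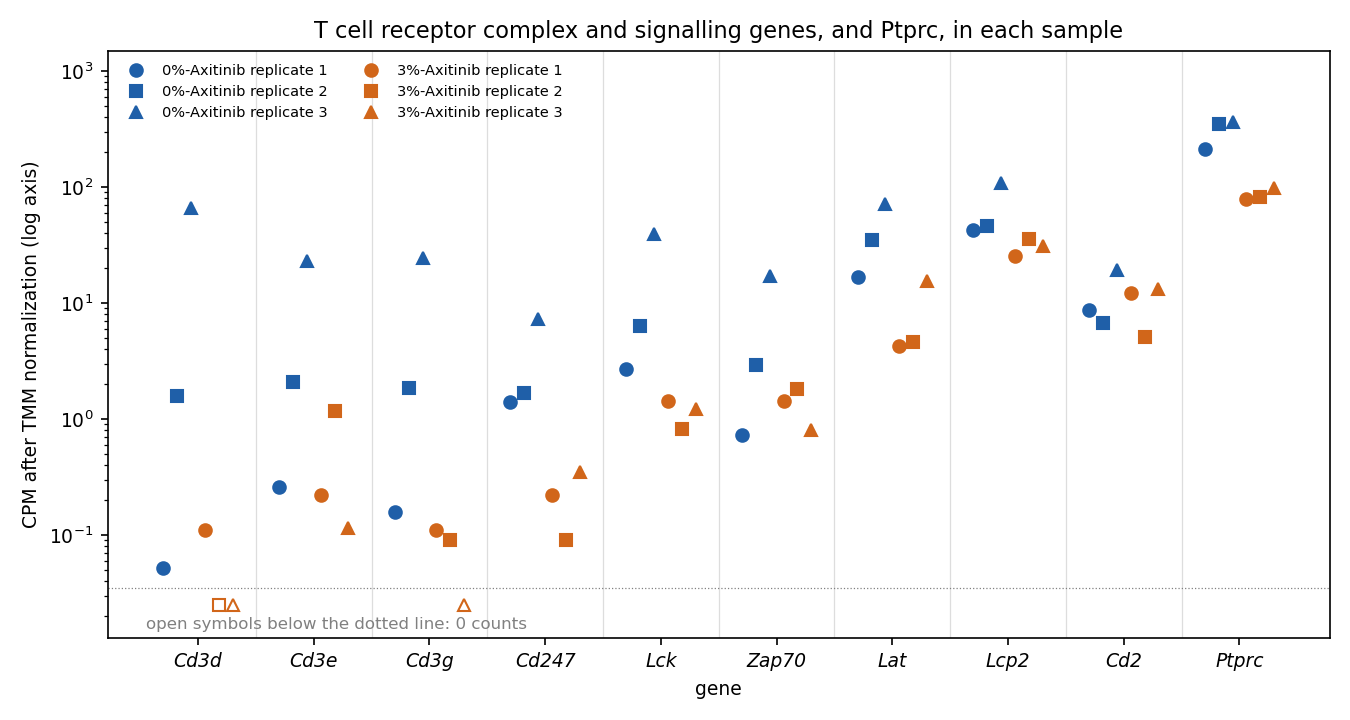
CPM after TMM normalization of the 9 genes and of the pan-leukocyte gene Ptprc on a log axis, 1 point per sample (blue, 0%-Axitinib group; orange, 3%-Axitinib group; the shape gives the replicate), with samples at 0 counts drawn as open symbols below the dotted line. Replicate 3 of the 0%-Axitinib group is the highest point for each of the 9 genes, from 7.28 CPM for Cd247 to 109 CPM for Lcp2.

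Of the 9 genes, 7 passed the filter on low counts. A gene met the study's criterion when its fold change was at least 1.5 and its unadjusted p at most 0.05. The study normalized with DESeq2 and reported fewer changed genes at these thresholds, so the counts here are not its own calls. Under this criterion, with the p of edgeR, 5 of the 7 tested genes (Cd3e, Cd247, Lck, Lat and Lcp2) were lower in the 3%-Axitinib group, against 11.7% of all 15257 tested genes. The count was 3 of 7 (Cd247, Lck and Lat) without replicate 3 of the 0%-Axitinib group, where 13.7% of all tested genes met the criterion. The count was also moved by other samples. It was 8 of 9 without replicate 1 of that group (12% of all tested genes) and 3 of 9 without treated replicate 3 (8.43% of all tested genes). With no filter on low counts, all 9 genes were fitted and 8 of them, all but Cd2, were lower under the criterion (9.44% of 26823 genes), while without replicate 3 of the 0%-Axitinib group as well the count was 5 of 9 (11% of 25403 genes).

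With edgeR, 0 of the 7 tested genes had an adjusted p of at most 0.05, a threshold that 0.00655% of all tested genes (1 gene) passed, while 5 had an unadjusted p of at most 0.05 (23.5% of all tested genes). Over all genes that count was 58 without treated replicate 2, 1252 without replicate 3 of the 0%-Axitinib group and 0 without any of the other 4 samples. With no filter the count of members was 0 of 9 (0.0559% of all genes), with 8 at an unadjusted p of at most 0.05 (16.1% of all genes). Without replicate 3 of the 0%-Axitinib group it was 0 of 7, with 4 at an unadjusted p of at most 0.05 (34.5% of all tested genes), although 7.98% of all tested genes then passed. Without that library and with no filter, 2 of 9 passed (8.51% of all genes), Cd247 (edgeR, adjusted p = 0.0497; 0.00174 to 0.281 over the alternatives) and Lck (edgeR, adjusted p = 0.0429; 0.000887 to 0.29). DESeq2's Wald test on all samples called 4 of 7 (Cd3e, Cd247, Lck and Lat), with 12.9% of all tested genes called, and limma-voom called 0 of 7, with 3 at an unadjusted p of at most 0.05 (21.8% of all tested genes).

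Every treated sample lay below every sample without drug for 4 of the 7 tested genes (Cd247, Lck, Lat and Lcp2), against 16.6% of all tested genes, and also for Cd3g among the genes not tested. Without replicate 1 of the 0%-Axitinib group this held for 8 of 9, against 20.2% of all tested genes. The median log2 fold change of the 7 tested genes was -2.37 beside -0.03 over all tested genes, and without replicate 3 of the 0%-Axitinib group it was -1.25 beside 0.02. With no filter, the median of all 9 genes was -3.78 beside -0.15 over all genes with reads, and -1.65 beside -0.004 without that replicate. Genes that are high in only some of the libraries without drug pass a filter on low counts through that group, so these medians and counts are a description.

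**Figure D2:**
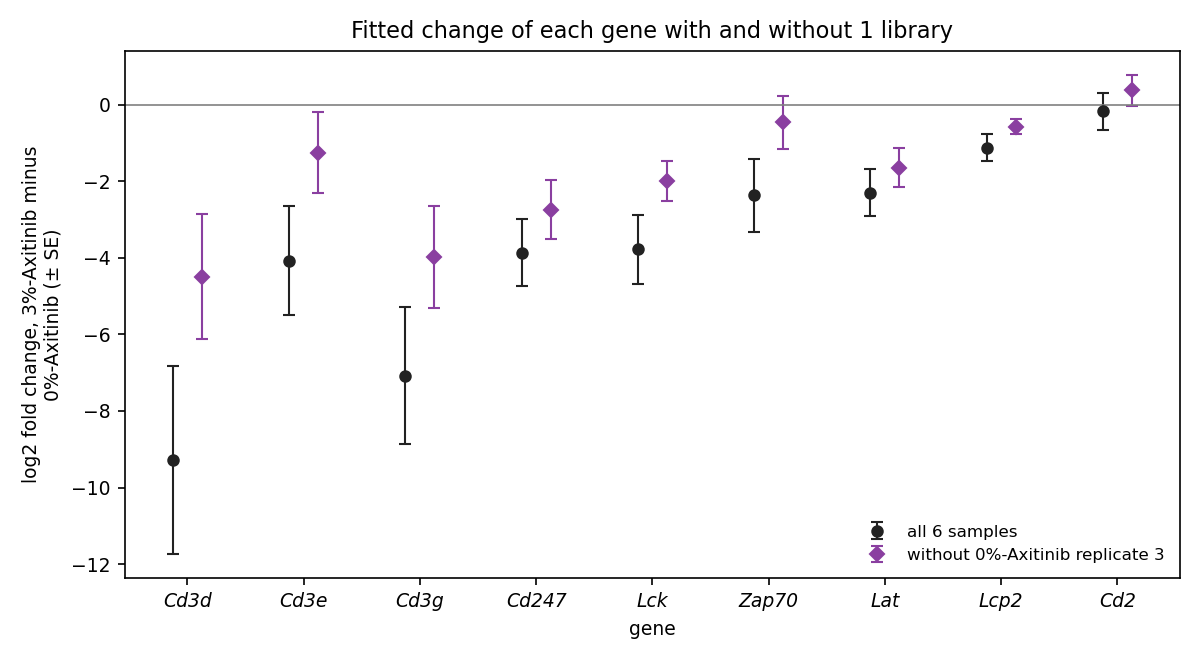
Log2 fold change (3%-Axitinib minus 0%-Axitinib) fitted by edgeR with no filter on low counts for the 9 genes, with all 6 samples (circles) and without replicate 3 of the 0%-Axitinib group (diamonds), where bars are ± SE. Leaving out that library moved each value upward, from -4.08 to -1.26 for Cd3e and from -1.12 to -0.58 for Lcp2, and moved Cd2 from -0.17 to 0.38, while the values of Cd3d and Cd3g rest on 1 and 2 treated reads.

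Between genes, levels were compared per kilobase of annotated exon. In replicate 3 of the 0%-Axitinib group, Cd3d was the highest of the 9 at 36.7 CPM per kb, ahead of Lat at 26.1, Lcp2 at 24.4 and Lck at 13.5 CPM per kb, with Cd2 at 11, Cd3g at 7.56, Zap70 at 5.78, Cd3e at 5.71 and Cd247 at 1.37 CPM per kb. In replicate 1 of the same group Cd3d was the lowest, at 0.0288 CPM per kb, and Lcp2, Lat and Cd2 led with 9.67, 6.11 and 5.04 CPM per kb. The 3%-Axitinib samples had the same leading genes as that replicate, with mean levels of 6.86 ± 1.15 CPM per kb for Lcp2, 5.88 ± 2.57 for Cd2 and 2.96 ± 2.32 for Lat (SD, n = 3), which lay within each other's spread for Lcp2 and Cd2. In untreated replicate 2, Lat, Lcp2 and Cd2 led as well, with 12.5, 10.4 and 3.85 CPM per kb.

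The libraries without drug differed among themselves most for the delta, gamma and epsilon chains of CD3, among the 9 genes. Cd3d and Cd3g went from 1 and 3 reads in replicate 1 to 1228 and 454 reads in replicate 3, and for Cd3e replicate 3 exceeded replicate 1 by 89.3-fold. The same ratio was 23.6 for Zap70, 14.5 for Lck, 5.16 for Cd247, 4.28 for Lat, 2.53 for Lcp2 and 2.19 for Cd2, and it was 1.69 for Ptprc. Replicate 2 exceeded replicate 1 by 8.04-fold for Cd3e, 1.2-fold for Cd247 and 1.07-fold for Lcp2. Cd2 was lower in replicate 2 than in replicate 1, at a ratio of 0.765.

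The antigen-binding chains of the receptor were measured through their constant genes. Trbc1 was read at 1.41, 6.47 and 24 CPM in the 0%-Axitinib group and at 0.77, 2.28 and 0.289 CPM in the 3%-Axitinib group. Trbc2 was read at 0.261, 2.97 and 28.9 CPM against 1.21, 0.82 and 0.579 CPM, and Trac, the constant gene of the alpha chain, at 0.574, 1.11 and 10 CPM against 0.77, 1.82 and 0.289 CPM. In all 3 genes untreated replicate 3 was the highest sample. Untreated replicate 1 lay within the range of the treated samples for Trbc1 and Trac and below it for Trbc2. Trbc1 and Trbc2 are near-identical copies, and their shares of reads are uncertain.

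Trdc, of the delta chain, was read at 0.209, 1.92 and 9.78 CPM against 0.55, 0.273 and 0.116 CPM. The gamma constant genes Tcrg-C1, Tcrg-C2 and Tcrg-C4, which also resemble each other, had between 3.26 and 5.16 CPM in untreated replicate 3 and at most 0.11 CPM in the treated samples, and Tcrg-C3 had at most 0.272 CPM in any sample. Tcrg-C2 had 0 reads in every treated sample and was at least 8.12-fold lower there (limit of 3 counts per library), or at least 2.22-fold without replicate 3 of the 0%-Axitinib group. Of the 8 constant genes, 3 passed the filter, and 2 of these (Trbc1 and Trbc2) were lower under the criterion with all samples and 0 without replicate 3 of the 0%-Axitinib group, with limma-voom or with a replicate block. The medians of these 3 were -3.27 and -0.92 on the log2 scale. The count over the list was 5 without replicate 1 of the 0%-Axitinib group, 4 without replicate 2 of that group, and 4 without treated replicate 1 or treated replicate 2, as more of its genes then passed the filter. The list summed to 3.65, 14.5 and 85.8 CPM in the 0%-Axitinib group and to 3.52, 5.19 and 1.27 CPM in the 3%-Axitinib group, so that only replicates 2 and 3 without drug exceeded the treated samples.

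Reads on the variable, diversity and joining segments, which are spliced to the constant genes in rearranged chains, were scarce. Over 259 annotated segments there were 25, 72 and 163 reads in the 0%-Axitinib group (1.31, 4.2 and 8.85 CPM) and 13, 5 and 9 reads in the 3%-Axitinib group (1.43, 0.456 and 0.521 CPM). They fell on 12, 20 and 36 different segments without drug and on 7, 4 and 4 with it. By chain, untreated replicate 3 had 102 reads on beta, 42 on alpha, 17 on gamma and 2 on delta segments. The segment with the most reads, Trbv13-2, had 1, 2 and 18 reads without drug and 4, 0 and 0 with it, and Trbv13-1 had 24 reads in untreated replicate 3 and 0 in the other 5 samples. The sums overlapped between the groups through replicate 1 of each. Gamma segments listed under the older symbols Tcrg-V were included.

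Coreceptors were read beside the receptor. Cd4, which macrophages can also carry at low levels, was read at 6.06, 8.63 and 24.2 CPM in the 0%-Axitinib group and at 0.66, 0.82 and 1.16 CPM in the 3%-Axitinib group. The groups did not overlap, and the log2 fold change was -3.85 ± 0.64 (SE; edgeR, adjusted p = 0.0965) with all samples and -3.02 ± 0.40 (SE; edgeR, adjusted p = 0.0379) without replicate 3 of the 0%-Axitinib group, where it passed 0.05, within a range of 1.08e-06 to 0.28 over the alternatives. Cd8a, which marks cytotoxic T cells and some dendritic cells, was read at 0.104, 2.97 and 25.7 CPM without drug and had 0 reads in all 3 treated samples, at least 37.1-fold lower (limit of 3 counts per library) and at least 5.94-fold without replicate 3 of the 0%-Axitinib group. Cd8b1, which is closer to a T cell marker and was named after its values were seen, was read at 0, 1.69 and 10.9 CPM without drug and had 0 reads in all treated samples. Both CD8 chains were thus at or near 0 in untreated replicate 1 as well.

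Over the 17 coreceptor and costimulatory genes, 8 passed the filter, 5 were lower under the criterion with all samples (median log2 fold change -3.64) and 5 without replicate 3 of the 0%-Axitinib group (median -1.75), and 0 were higher. The list had 10 lower genes without replicate 1 of that group (12% of all tested genes) and 8 without treated replicate 2 (9.28%). In both settings more genes of the list passed the filter. Among the 8 genes tested with all samples, the scavenger-like receptor gene Cd6 had the lowest fitted value, at -4.40 ± 1.29 (SE; edgeR, adjusted p = 0.126). Cd7 was next, at -4.30 ± 1.21 (SE; edgeR, adjusted p = 0.118), and DESeq2's Wald test called both. Without replicate 3 of the 0%-Axitinib group they were -2.48 (edgeR, adjusted p = 0.103) and -2.17 (edgeR, adjusted p = 0.063). The most abundant gene, Cd48, which most leukocytes carry, was read at 67.7, 80.8 and 56.5 CPM against 41.4, 53.9 and 51 CPM. It was the only one of the named genes of the list with its lowest untreated sample in replicate 3. The highest fitted value besides Cd48 was that of Cd96, at -1.44 ± 1.03 (SE; edgeR, adjusted p = 0.422), with overlapping groups. The value of Cd96 became -0.72 without replicate 3 of the 0%-Axitinib group and -3.01 without treated replicate 2.

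Of 50 other genes of receptor signalling, 42 passed the filter, 18 were lower and 0 higher under the criterion, and the median log2 fold change was -0.68. Without replicate 3 of the 0%-Axitinib group, 13 were lower and 1 was higher, with a median of -0.48. Without replicate 1 of that group 28 were lower (12% of all tested genes), where more of the 50 genes passed the filter. Grap2, an adaptor that binds Lcp2 and Lat, was read at 0.992, 1.57 and 12.6 CPM without drug and at 0, 0.182 and 0 CPM with it. Sh2d2a, a T cell adaptor that binds Lck, was read at 0.94, 2.86 and 12.8 CPM against 0.44, 0.182 and 0.984 CPM. Grap2 did not overlap between the groups, whereas Sh2d2a did, by the margin between untreated replicate 1 and treated replicate 3.

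The 4 genes of that list with the highest mean level, Coro1a, Dgkz, Ptprc and Grb2, are not restricted to T cells, and the groups separated for Ptprc alone among them. Coro1a, an actin regulator of leukocytes, was read at 237, 296 and 1360 CPM without drug and at 245, 259 and 352 CPM with it. Dgkz was read at 256, 332 and 125 CPM against 178, 219 and 286 CPM, and Grb2 at 174, 242 and 218 CPM against 142, 155 and 187 CPM. In these 3 genes the groups overlapped. Dgka, the diacylglycerol kinase alpha that damps receptor signalling, was 42.8, 37.7 and 33.5 CPM without drug and 47.6, 43.4 and 54.2 CPM with it, so that every treated sample lay above every untreated one (log2 fold change 0.35 ± 0.18, SE; edgeR, adjusted p = 0.288).

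Prkcq, the protein kinase C that links the receptor to NF-kappaB and is also abundant in skeletal muscle, was read at 2.51, 2.45 and 14.8 CPM without drug and at 39, 2.73 and 24.1 CPM with it. Its high samples, treated replicates 1 and 3, were those with skeletal muscle genes. Of the 12 skeletal muscle genes, 11 were tested and 9 were higher under the criterion with edgeR, against 9.54% of all tested genes (7 without replicate 3 of the 0%-Axitinib group, and 0 with limma-voom), and Acta1, which has the highest mean level but is not among these 9, was read at 35.1, 0.292 and 0.0543 CPM without drug and at 3920, 0.0911 and 1850 CPM with it. Ckm was at 0 counts in treated replicate 2. The part of muscle in the value of Prkcq was not tested.

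Among 15 transcription factors of the T lineage, 13 passed the filter and 5 were lower under the criterion, with a median log2 fold change of -1.49 (-0.97 without replicate 3 of the 0%-Axitinib group). Ets1 was read at 56, 51.6 and 149 CPM without drug and at 17.9, 20.5 and 18.2 CPM with it. The fitted difference on the log2 scale was -2.18 ± 0.44 (SE; edgeR, adjusted p = 0.0965) and -1.51 (edgeR, adjusted p = 0.0379) without replicate 3 of the 0%-Axitinib group, within a range of 0.000181 to 0.28 over the alternatives. Endothelial cells express the gene too. Ikzf3 was read at 0.992, 2.45 and 11.3 CPM against 0.22, 0.273 and 0 CPM, and Eomes, a factor of NK and cytotoxic T cells, at 1.1, 2.16 and 16 CPM against 0.33, 0.364 and 0.405 CPM. In these 3 genes the groups did not overlap. Tcf7 was read at 1.67, 3.32 and 9.29 CPM without drug and 3.96, 18.3 and 5.5 CPM with it (log2 fold change 0.96 ± 0.80, SE; edgeR, adjusted p = 0.487), and the groups overlapped. Its fitted value was 0.01 without treated replicate 2, whose level was the highest, 0.55 without replicate 1 of the 0%-Axitinib group and 1.89 without replicate 3 of that group.

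Ptprc (CD45), which nearly all leukocytes carry, was read at 215, 351 and 363 CPM in the 0%-Axitinib group and at 79.7, 81.7 and 98.1 CPM in the 3%-Axitinib group. Every treated sample lay below every untreated one, and the fitted log2 fold change was -1.84 ± 0.27 (SE; edgeR, adjusted p = 0.0965) with all samples and -1.71 ± 0.25 (SE; edgeR, adjusted p = 0.0379) without replicate 3 of the 0%-Axitinib group, so that the gene passed 0.05 there, and the adjusted p ran from 1.67e-07 to 0.28 over all alternatives. Each of the 9 genes was therefore also set against Ptprc within a sample, as a difference of log2 CPM (prior count 2), where the scaling between libraries cancels except in the prior. Ptprc overlaps A130071D04Rik, to which 769 reads were given in untreated replicate 3 and 42 to 100 reads in each other sample.

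Per 1000 Ptprc reads, Cd3e had 1.21, 5.98 and 64.2 reads in the 0%-Axitinib group and 2.76, 14.5 and 1.18 reads in the 3%-Axitinib group. Lck had 12.6, 17.9 and 108 reads against 17.9, 10 and 12.4. For both genes untreated replicate 3 stood apart, and untreated replicates 1 and 2 lay in the range of the treated samples. Cd247 had 6.55, 4.82 and 20 reads against 2.76, 1.11 and 3.54 reads and was the only one of the 9 genes for which every treated ratio lay below every untreated one. Its mean log2 difference from Ptprc was -6.78 without drug and -8.02 with it, 1.24 lower (p = 0.1 by exact permutation of the samples, two-sided, which is the smallest value that 3 against 3 samples allow). With 1 to 6 treated reads this difference depends on the prior count, from -1.72 at 0.5 to -0.68 at 5.

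Lcp2 and Cd2 separated in the opposite direction. Lcp2 had 200, 132 and 301 reads per 1000 Ptprc reads without drug and 317, 435 and 315 with it, and Cd2 had 40.8, 19.1 and 52.8 against 154, 62.4 and 136. Their log2 differences from Ptprc were higher in the 3%-Axitinib group by 0.82 and 1.66 (p = 0.1 for each by exact permutation). The groups overlapped for the other 6 genes, with differences of -2.30 for Cd3d, -1.86 for Cd3g, -1.03 for Lck, -0.69 for Cd3e, -0.53 for Lat and 0.47 for Zap70 (exact permutation p between 0.4 and 0.7). Without replicate 3 of the 0%-Axitinib group these became -0.10, -0.29, -0.09, 0.73, -0.14 and 1.48, and those of Cd247, Lcp2 and Cd2 became -0.64, 1.11 and 1.97. Without replicate 1 of that group they moved the other way, to -3.95 for Cd3d, -3.11 for Cd3g, -1.61 for Lck, -1.83 for Cd3e, -0.81 for Lat and -0.30 for Zap70. Treated samples moved them as well, Cd3e to -1.48 without replicate 2 and -0.11 without replicate 3, Lat to between -1.03 and -0.26, and Zap70 to between 0.20 and 0.87. Without untreated replicate 2, Lcp2 came to 0.52 and Zap70 to 0.25. Without replicate 3 of the 0%-Axitinib group, Cd3d, Cd3g, Lck and Lat stood within 0.29 of Ptprc in their log2 difference between the groups, although for Cd3d and Cd3g, at 0 or 1 treated reads, these values rest on the prior count.

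Marker lists were read for other cell types that carry some of the 9 genes. All 17 NK and cytotoxic genes were highest in untreated replicate 3, and their sum was 28.9, 76.5 and 366 CPM in the 0%-Axitinib group and 14.6, 24.2 and 18.3 CPM in the 3%-Axitinib group. Of the 14 tested, 13 were lower under the criterion (median log2 fold change -3.42), and 8 of 14 without replicate 3 of the 0%-Axitinib group (median -2.11), while 8 of the list were lower without treated replicate 3 and 6 with limma-voom. Nkg7, first by mean level through untreated replicate 3 alone, was read at 1.57, 4.96 and 90.7 CPM against 1.21, 1.37 and 0.463 CPM, and Ncr1, an NK cell receptor gene named after its values were seen, at 2.51, 5.72 and 11 CPM against 0.88, 0.82 and 0.116 CPM. Ctsw was the 1 tested gene of the list that was not lower under the criterion. It was read at 3.24, 7.17 and 27.7 CPM without drug and at 2.64, 12.3 and 3.88 CPM with it. Its log2 fold change was -1.02 ± 0.89 (SE; edgeR, adjusted p = 0.508), and 0.27 without replicate 3 of the 0%-Axitinib group. Ccl5, at 4.02, 7.87 and 62.7 CPM against 4.29, 3.01 and 4.69 CPM, overlapped between the groups as Ctsw did. Between 2 and 4 of the 17 genes were at 0 in each treated sample. Their part in the values of Cd247, Lck, Zap70, Lat and Lcp2 was not tested.

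Mast cell genes, which bear on Lat and Lcp2, summed to 106, 136 and 300 CPM without drug and to 12.2, 8.75 and 47.5 CPM with it. All 8 were tested and lower under the criterion (median -3.27), and 7 of 8 without replicate 3 of the 0%-Axitinib group (median -2.42). Hdc, first by mean level through untreated replicate 3, was read at 11.4, 9.91 and 109 CPM against 3.52, 1.91 and 6.89 CPM, the protease gene Tpsb2 at 27.1, 43.3 and 37.3 CPM against 2.86, 2.28 and 16.1 CPM, and Mcpt4 at 21.5, 22.6 and 40.7 CPM against 0.99, 0.364 and 7.82 CPM. Kit was 13.2, 16.2 and 46.2 CPM against 0.99, 1.55 and 2.72 CPM, while Fcer1a was at 0 counts in treated replicate 1. Treated replicate 3, the highest treated sample for this list, was also the highest for Lat. The part of mast cells in the value of Lat was not tested.

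Platelet and megakaryocyte genes were concentrated in untreated replicate 3, with sums of 111, 56.3 and 899 CPM in the 0%-Axitinib group and 174, 239 and 171 CPM in the 3%-Axitinib group. Pf4 was the most abundant, at 95.3, 45.6 and 291 CPM against 152, 220 and 149 CPM. Gp9, a platelet membrane gene, was read at 0.209, 0.117 and 32.2 CPM and had 0 reads in the treated samples. Of 4 tested genes 1 was lower under the criterion (median log2 fold change -2.59), and 0 were lower and 1 higher without that library (median 0.76). The count of lower genes was 3 without replicate 1 or replicate 2 of the 0%-Axitinib group and 0 without any of the treated samples. All 6 neutrophil genes were also highest in that library, and 2 of 5 tested were lower under the criterion with it (median -5.27) and 0 without it (median 1.26), where 1, S100a8, was higher. The count of lower genes was 5 without replicate 1 or replicate 2 of the 0%-Axitinib group and 0 without any of the treated samples. Their part in the levels of the 9 genes there was not tested.

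**Figure D3:**
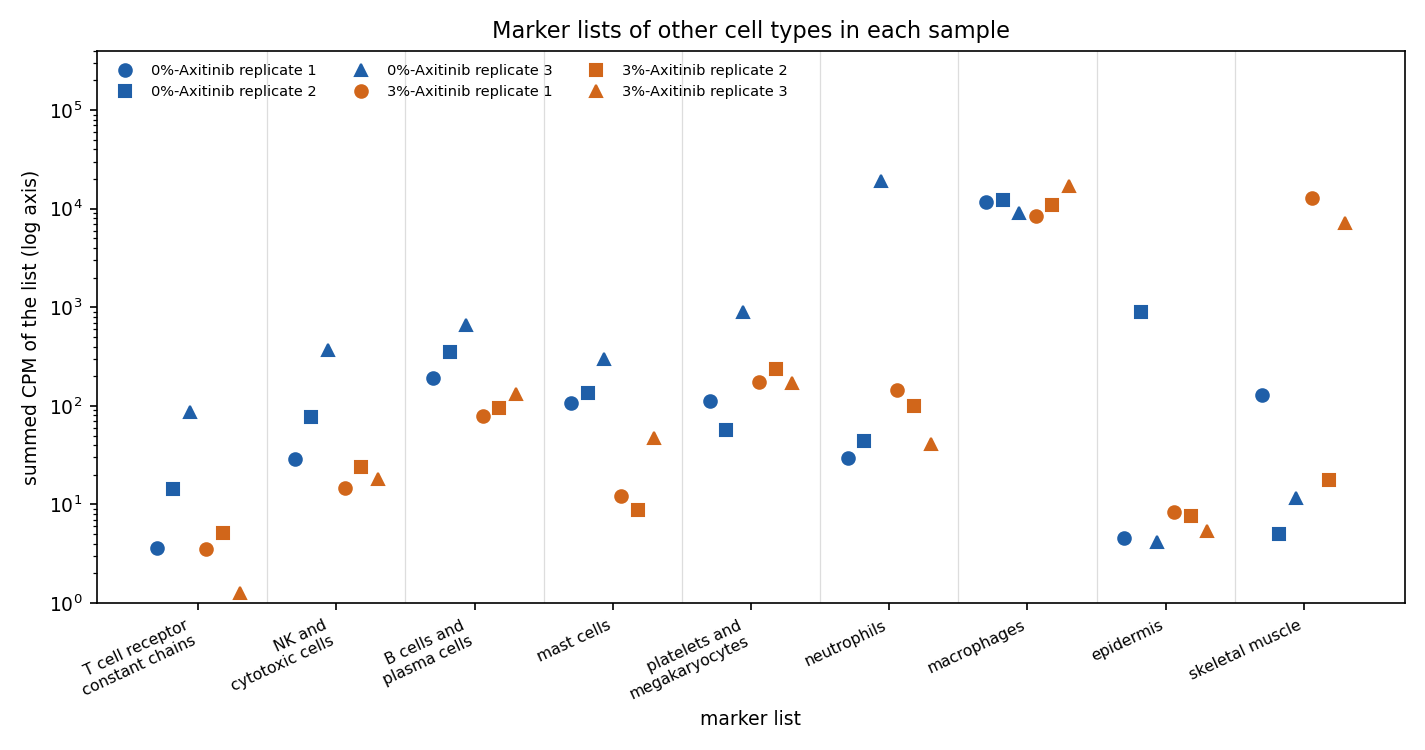
Summed CPM of 9 marker lists on a log axis, 1 point per sample (blue, 0%-Axitinib group; orange, 3%-Axitinib group; the shape gives the replicate). Replicate 3 of the 0%-Axitinib group is the highest point for the T cell receptor constant chains, NK, B, mast, platelet and neutrophil lists, epidermal genes are high in replicate 2 of that group, and muscle genes in treated replicates 1 and 3.

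B cell and plasma cell genes, which bear on Cd2, summed to 193, 351 and 661 CPM without drug and to 79.1, 94.2 and 133 CPM with it, and 9 of 10 tested were lower under the criterion (median -4.51), or 8 of 10 without untreated replicate 3 (median -1.70) and 4 with limma-voom. Blnk had the highest mean level, though not in untreated replicate 3, at 88.6, 130 and 51.6 CPM against 33.4, 43.6 and 70.1 CPM. Jchain, the lowest by fitted value, was read at 20.3, 95.6 and 190 CPM against 0.44, 0.0911 and 0.637 CPM. Its log2 fold change was -7.92 ± 1.06 (SE, edgeR adjusted p = 0.0965) with all samples. Without untreated replicate 3 it was -7.09 ± 0.87 (SE, edgeR adjusted p = 0.0379). Ms4a1 had 1.72, 1.05 and 14.1 CPM without drug and was at 0 counts in treated replicates 1 and 3. The part of B cells in the values of Cd2 was not tested.

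The remaining lists were read in the same way. Of 12 macrophage genes, 0 were lower under the criterion with edgeR, DESeq2 or limma-voom (median -0.07) and 1 without replicate 3 of the 0%-Axitinib group, and Lyz2 was the most abundant, with list sums of 11700, 12200 and 8940 CPM against 8470, 10900 and 16900 CPM. Of 8 dendritic cell genes, 6 were lower (median -2.50), and Itgax, the gene with the highest mean level, was not among these 6. The list had sums of 1440, 2290 and 391 CPM against 425, 310 and 831 CPM, of which Itgax made up most, while 5 of the 8 genes were highest in untreated replicate 3. Endothelial genes were lower in 7 of 8 (median -1.46), fibroblast genes in 0 of 8 (median 0.69; 1, Col1a1, was higher with all samples and 0 without replicate 3 of the 0%-Axitinib group), adipocyte genes in 2 of 6 (median -1.17; 5 without treated replicate 1) and epidermal genes in 2 of 3 tested (median -3.93). The epidermal count was 0 without replicate 2 of the 0%-Axitinib group, which held those genes, or without any of the treated samples. Krt5 and Krt1 were at 0 counts in replicates 1 and 3 of the 0%-Axitinib group.

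The genes with the pattern most like the mean of the 7 tested members were sought among 14336 other genes with a mean of at least 1 CPM, by the root mean square difference of centred log2 CPM over the 6 samples. They were Nrg2 (difference 0.18), Dennd2d (0.26), AI504432 (0.26), Dusp2 (0.27) and Ipcef1 (0.28). Dusp2 was read at 4.44, 6.59 and 25.1 CPM without drug and at 3.08, 1.91 and 3.18 CPM with it, and Ipcef1 at 2.24, 4.26 and 31 CPM against 1.43, 1.64 and 1.51 CPM. Among the members themselves, Lck lay closest to that mean (0.58), and Cd3e (1.18) and Cd2 (1.11) lay farthest from it.

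The 3 genes of the CD3 delta, epsilon and gamma chains are neighbours on chromosome 9, within 40.1 kb of the GRCm38 assembly. Cd3g (chr9:44969572-44980431, minus strand) and Cd3d (chr9:44981786-44987339, plus strand) are transcribed away from each other, with 1354 bases between their annotated starts, and Cd3e (chr9:44998740-45009627, minus strand) follows on the far side of Cd3d. The other 6 genes lie apart, with Cd247 at chr1:165788681-165877277, Zap70 at chr1:36761798-36782818, Cd2 at chr3:101275899-101287939, Lck at chr4:129548344-129573641, Lat at chr7:126363824-126369570 and Lcp2 at chr11:34046920-34092295. In the GENCODE annotation Cd3d, Cd3g and Cd2 overlap no other gene.

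Since the CD3 neighbours had their reads in the same library, the 250 bases before each start are shown from RefSeq (GRCm38.p6), 5′ to 3′ on the strand of the gene. Windows were found for 8 of the 9 genes (all but Cd2), 11 in all because Lck and Zap70 have several starts. Capitals mark matches, on either strand, to 4 motifs: GGAAG, the core of ETS factor sites; CACCTG, bound by E proteins; TGTGGT, bound by RUNX factors; and AGATAA, bound by GATA factors. No match overlapped another. The windows are chr9:44981536-44981785 (plus strand) for Cd3d, chr9:45009612-45009861 (minus strand) for Cd3e and chr9:44980432-44980681 (minus strand) for Cd3g.
Cd3d: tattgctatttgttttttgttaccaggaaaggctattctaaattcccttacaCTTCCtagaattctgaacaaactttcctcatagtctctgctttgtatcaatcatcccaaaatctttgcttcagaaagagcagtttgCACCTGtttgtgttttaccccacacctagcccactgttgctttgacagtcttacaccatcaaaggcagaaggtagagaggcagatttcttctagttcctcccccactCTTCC
Cd3e: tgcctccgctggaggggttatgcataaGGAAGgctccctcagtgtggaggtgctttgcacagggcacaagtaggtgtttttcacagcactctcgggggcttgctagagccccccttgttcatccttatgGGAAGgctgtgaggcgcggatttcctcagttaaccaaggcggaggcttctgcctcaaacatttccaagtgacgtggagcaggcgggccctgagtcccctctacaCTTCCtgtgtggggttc
Cd3g: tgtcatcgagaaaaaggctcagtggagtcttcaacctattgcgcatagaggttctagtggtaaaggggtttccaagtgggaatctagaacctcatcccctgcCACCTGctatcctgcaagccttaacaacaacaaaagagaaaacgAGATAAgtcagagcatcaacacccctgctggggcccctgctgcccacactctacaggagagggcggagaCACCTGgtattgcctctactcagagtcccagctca
The Cd3d window held 2 ETS letters and 1 E protein match, the Cd3e window 3 ETS matches, and the Cd3g window 2 E protein matches and 1 GATA match. RUNX letters were found in 0 of these 3 windows. Over all 11 windows, ETS letters were in 9 (64.1% of 32851 mouse promoters of the same length), E protein letters in 6 (17.2%), RUNX letters in 2 (14%) and GATA letters in 2 (9.99%). Such matches describe letters only, and binding was not measured here.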

How the data were processed

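The authors selected poly(A) RNA, filtered reads with fastp, aligned them to mm10 with STAR (2.5.2b in the submitters' processing notes) and deposited unnormalized read counts per gene symbol. The annotation release and strand setting are not given in the sources used here. Reads assigned to no gene, kept out of libraries and tests, made up 19.1% to 57.8% of a library. The tests used edgeR 4.0.16 under R 4.3.3 (filterByExpr with minimum count 10 and minimum total 15, TMM, quasi-likelihood test, Benjamini-Hochberg adjustment over 15257 genes). CPM, ratios to Ptprc and exact permutation tests were computed from the deposited counts.

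The 9 members and 16 other marker lists (208 genes in 17 lists) were chosen with earlier results of these data known. Named genes were all members, every gene of lists of up to 8 genes, otherwise the 4 most abundant genes and the 2 lowest and 2 highest by fold change, and the 5 genes most like the members. Alternatives were other scaling, DESeq2 1.42.0, limma-voom (limma 3.58.1), other filters, a replicate block and leaving out each sample. Positions came from GENCODE (GRCm38), and figures were drawn with matplotlib 3.10.9.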

Additional observations from a re-analysis of the deposited data

How the results depend on the processing

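The median of all genes moved from -0.03 to -0.16 with total counts in place of TMM, and by less than 0.1 with DESeq2's size factors. The fitted values of Cd3e, Cd247, Lck, Zap70, Lat and Lcp2 were below 0 under all alternatives that fitted them, as were those of Cd3d and Cd3g under the 6 settings that did. Cd2 changed sign, with values from -0.45 to 0.40 when a sample was left out and 0.38 with no filter and without replicate 3 of the 0%-Axitinib group, an alternative chosen after seeing the data. The cause was not tested.

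Members lower under the study's criterion numbered 5 in the main analysis (11.7% of all tested genes), 3 with limma-voom (9.73%), 8 with no filter (2 more genes fitted; 9.44%), 2 with at least 10 counts in every sample (4 members fitted; 12%), and 3 to 8 when a sample was left out (8.24% to 13.7%). With DESeq2's Wald test 6 members met the criterion (12.9%). At an adjusted p of 0.05 or less stood 0 members with edgeR (0.00655% of all tested genes), while 5 had an unadjusted p of 0.05 or less (23.5%). The adjusted count was also 0 when any sample was left out (at most 7.98% of all tested genes). It was 4 with DESeq2's Wald test (12.9%), and 2 with no filter and without replicate 3 of the 0%-Axitinib group (8.51% of all genes). Members whose groups did not overlap numbered 4 (16.6% of all tested genes), 2 with at least 10 counts in every sample (17%), and 4 to 8 when a sample was left out (18.5% to 27.3%). Their median log2 fold change was -2.37, -3.78 with no filter, and -4.24 to -1.25 when a sample was left out.

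Over all genes, 1785 were lower under the criterion, 2799 with no filter and without replicate 3, and 1072 at a fold change of 2. With limma-voom, lower genes numbered 0 of the receptor constant chains, platelet, neutrophil and epidermal lists, 2 coreceptors, 3 transcription factors, 4 B cell and 6 NK genes. With at least 10 counts in every sample, where fewer genes are fitted, they numbered 0 constant chains and coreceptors and 2 each of the transcription factors, NK and B cell genes. An adjusted p of at most 0.05 was reached by 1 gene, 1961 with DESeq2's Wald test, 2 with limma-voom, 15 with no filter, 2161 with no filter and without replicate 3, and 0 to 1252 when a sample was left out.

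Deviations from the group means correlated at 0.18, -0.12 and -0.17 between the samples numbered 1, 2 and 3 in the 2 groups. Between samples of unlike number the correlations ran from -0.22 to 0.21. With 3 samples per group the deviations sum to 0 in each group, so these values cannot decide whether replicate numbers pair the samples. With the replicate block, 4 members met the criterion (8.87% of all tested genes), and the adjusted p was 0.05 or less for 2 of all genes and 0 members. Cd3d, Cd3g, Cd3e, Cd247 and Lck could not be fitted with at least 10 counts in every sample. With 0 or 1 reads per treated sample, Cd3d and Cd3g could not be told from absent at this depth.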
